A study of Rattus norvegicus with 16 samples.

Results

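Calcium handling by the sarcoplasmic reticulum was followed through 10 genes: the pump Atp2a2 and its small inhibitors Pln and Sln, the release channel Ryr2 and its partners Trdn, Jph2 and S100a1, the luminal calcium binders Casq2 and Hrc, and the exchanger Slc8a1 of the plasma membrane. They were taken by symbol from tables of 32754 gene entries, and each symbol occurs once. All 10 passed the filter on low counts and are among the 13458 genes tested. The tables come from RNA sequencing of the right ventricle of female Sprague Dawley rats aged 20 to 21 weeks. WT rats were compared with rats of the genotype ERalpha -/- (KO), which carry a mutation of the estrogen receptor alpha gene, and each genotype was either banded around the pulmonary artery for 10 weeks (PAB), which loads the right ventricle with pressure, or operated on without a band (SHAM). There are 4 libraries in each of the 4 groups, named here by group and number (WT SHAM 1 and so on). The labels give no cell type restriction for the mutation. Whether the libraries of 1 group come from different animals is not stated, and the p-values here reflect the spread among libraries, which may be technical.

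In a heartbeat, calcium that enters through the trigger channel of the plasma membrane opens ryanodine receptors in the junctional sarcoplasmic reticulum, and the released calcium starts contraction. Relaxation follows as the pump SERCA, the product of Atp2a2, returns calcium to the reticulum and the sodium-calcium exchanger carries the rest out of the cell. Phospholamban (Pln) holds the pump back until it is phosphorylated, and changes in the balance of pump, inhibitor and release channel are widely studied in the overloaded heart.

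Total counts per library ran from 22168110 to 34718633, and mitochondrially encoded genes took 33.6% to 42.8% of them. Esr1, which encodes estrogen receptor alpha, had 70 to 139 counts in the 8 WT libraries and 7 to 21 in the 8 KO libraries, lower in each KO library but not absent. A level is given in CPM, a count relative to its library's total after TMM adjustment. Libraries WT SHAM 2, WT SHAM 3 and KO SHAM 4 stand apart: their summed smooth muscle markers were 909 to 2970 CPM against 104 to 308 CPM in the other 13 libraries, and their summed mesothelial markers 56.8 to 113 CPM against 7.61 to 29.2 CPM. In turn their summed cardiomyocyte markers were 36533 to 50358 CPM, against 48195 to 70146 CPM in the other 13. WT SHAM 2 had the lowest level of all libraries for 9 of the 10 genes, Sln being the exception. Results on banding are therefore also given without these 3 libraries, as are some on genotype and the interaction. In bulk tissue, fewer cells of a type and less RNA per cell cannot be told apart.

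The ventricle was checked against its markers. Of 13 cardiomyocyte markers 12 are listed, and Tcap among them was at 0 counts in both sham groups and reached at most 1 count in a banded library. Myl2, another of them, was at 43.8 to 121 CPM, and Myl3 at 2512 to 5329 CPM. Levels are not corrected for gene length, and how completely the deposited values count Tcap and Myl2 was not tested. The atrial marker Bmp10 had 0 or 1 count in every library. Summed atrial markers were 36.4 to 50.2 CPM in the 8 sham libraries, 70.1 to 487 CPM in WT PAB and 353 to 1066 CPM in KO PAB. Nppa, an atrial peptide gene that loaded ventricles also express, made up most of the sum in KO PAB, with 326 to 1017 CPM. In the sham libraries Kcnj3 alone was at 21.8 to 38.8 CPM. Myl7, another of the atrial markers, had 326, 174 and 279 counts in WT SHAM 2, WT SHAM 3 and KO SHAM 4. The other sham libraries had 0 to 22 Myl7 counts. Of the skeletal muscle markers Myod1 was at 0 in both sham groups and in WT PAB.

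Promoter sequences were read from a RefSeq table of build GRCr8, which holds 250 bases before and 50 bases after each gene's start and which matched 8 of the 10 genes; Sln and S100a1 have no entry there. The promoters of Atp2a2, Ryr2 and Trdn are shown because the results below that passed a test are ratios among these 3 genes. Capitals mark the GC box (GGGCGG), the E-box (CANNTG) and the hexamer AGGTCA of the estrogen response element, on either strand and 5′ to 3′ along the gene. Matches that overlap run together as 1 stretch of capitals. The windows are chr12:39733269-39733568 (plus strand) for Atp2a2, chr17:63081277-63081576 (plus strand) for Ryr2 and chr1:26229550-26229849 (minus strand) for Trdn.
Atp2a2: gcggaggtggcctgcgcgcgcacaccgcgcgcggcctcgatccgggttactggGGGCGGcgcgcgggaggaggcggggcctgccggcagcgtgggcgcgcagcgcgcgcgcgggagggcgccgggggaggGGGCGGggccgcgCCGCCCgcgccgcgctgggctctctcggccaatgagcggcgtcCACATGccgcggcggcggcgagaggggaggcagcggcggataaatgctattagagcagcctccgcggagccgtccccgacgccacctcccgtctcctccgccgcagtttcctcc
Ryr2: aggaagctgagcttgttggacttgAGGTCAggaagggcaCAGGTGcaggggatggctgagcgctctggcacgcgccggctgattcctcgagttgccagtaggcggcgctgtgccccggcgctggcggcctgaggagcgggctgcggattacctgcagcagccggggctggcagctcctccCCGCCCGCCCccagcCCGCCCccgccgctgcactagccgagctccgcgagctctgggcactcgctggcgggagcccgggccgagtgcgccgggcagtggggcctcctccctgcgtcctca
Trdn: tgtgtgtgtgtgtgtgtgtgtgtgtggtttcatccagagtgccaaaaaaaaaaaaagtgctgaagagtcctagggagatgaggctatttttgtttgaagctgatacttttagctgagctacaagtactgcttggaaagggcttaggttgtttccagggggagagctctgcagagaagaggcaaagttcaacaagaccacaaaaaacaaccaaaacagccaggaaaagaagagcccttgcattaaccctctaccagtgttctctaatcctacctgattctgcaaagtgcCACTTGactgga

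The pump and channel promoters were rich in G and C, 79.0% of bases for Atp2a2 and 73.0% for Ryr2, against 44.3% for Trdn and a median of 51.7% over 33469 promoters. Atp2a2 and Ryr2 each hold 3 GC boxes, a motif that 33.1% of all promoters hold, and Trdn and the 5 other matched genes hold none. The E-box occurs once in each of the 3 promoters and in 72.1% of all promoters. Ryr2 holds the hexamer AGGTCA once, as 16.2% of promoters do, and none of the 8 matched genes holds the full estrogen response element (GGTCA, 3 free bases, then TGACC), which 0.0269% of promoters hold. The MEF2 motif, found in 3.29% of promoters, occurs in that of Casq2 alone among the 8. Of the forms of the GATA motif only AGATAA was searched, and this hexamer, which 11.6% of promoters hold, occurs in none of the 8. Neither does the MCAT motif of muscle genes, CATTCC, held by 14.2%, nor the CArG motif, held by 1.64%. A match is a run of letters, and nothing here tests whether a factor binds it.

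Banding was compared with sham in each genotype and averaged over both. None of the 10 genes passed the edgeR quasi-likelihood test at an adjusted p below 0.05 in WT, where 0.00743% of all tested genes passed, in KO, where 0.632% passed, or in the average, where 5.09% passed. limma-voom also called none in the average, where it passed 4.7% of all genes, and DESeq2 called 1, Jph2, where it passed 9.94%. At an unadjusted p below 0.05 there were 2 of the 10 in WT (11.7% of all genes), 1 in KO (15.6%) and 3 in the average (22.7%). The median log2 fold change over the 10 genes was 0.13 in WT, -0.05 in KO and 0.06 in the average, against -0.02 over all tested genes in each. Point estimates of Ryr2, Jph2 and Slc8a1 were 0.19 or more in both genotypes, while Hrc was the 1 gene below 0 in both, at -0.01 in WT and -0.38 in KO.

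These figures depend on the 3 sham libraries that stand apart. Without them the median over the 10 genes was -0.08 in WT, -0.18 in KO and -0.13 in the average, against medians of 0.01, 0.01 and 0.01 over all genes. Then 1 of the 10 had an unadjusted p below 0.05 in WT (7.47% of all genes), 7 in KO (23.4%) and 7 in the average (24.8%). The edgeR test passed 0 of the 10 in WT (0.0% of all genes), Jph2 in KO (2.53%) and Hrc in the average (7.0%). Leaving these libraries out was decided after seeing the data, and they hold the lowest Hrc levels of both sham groups.

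**Figure D1:**
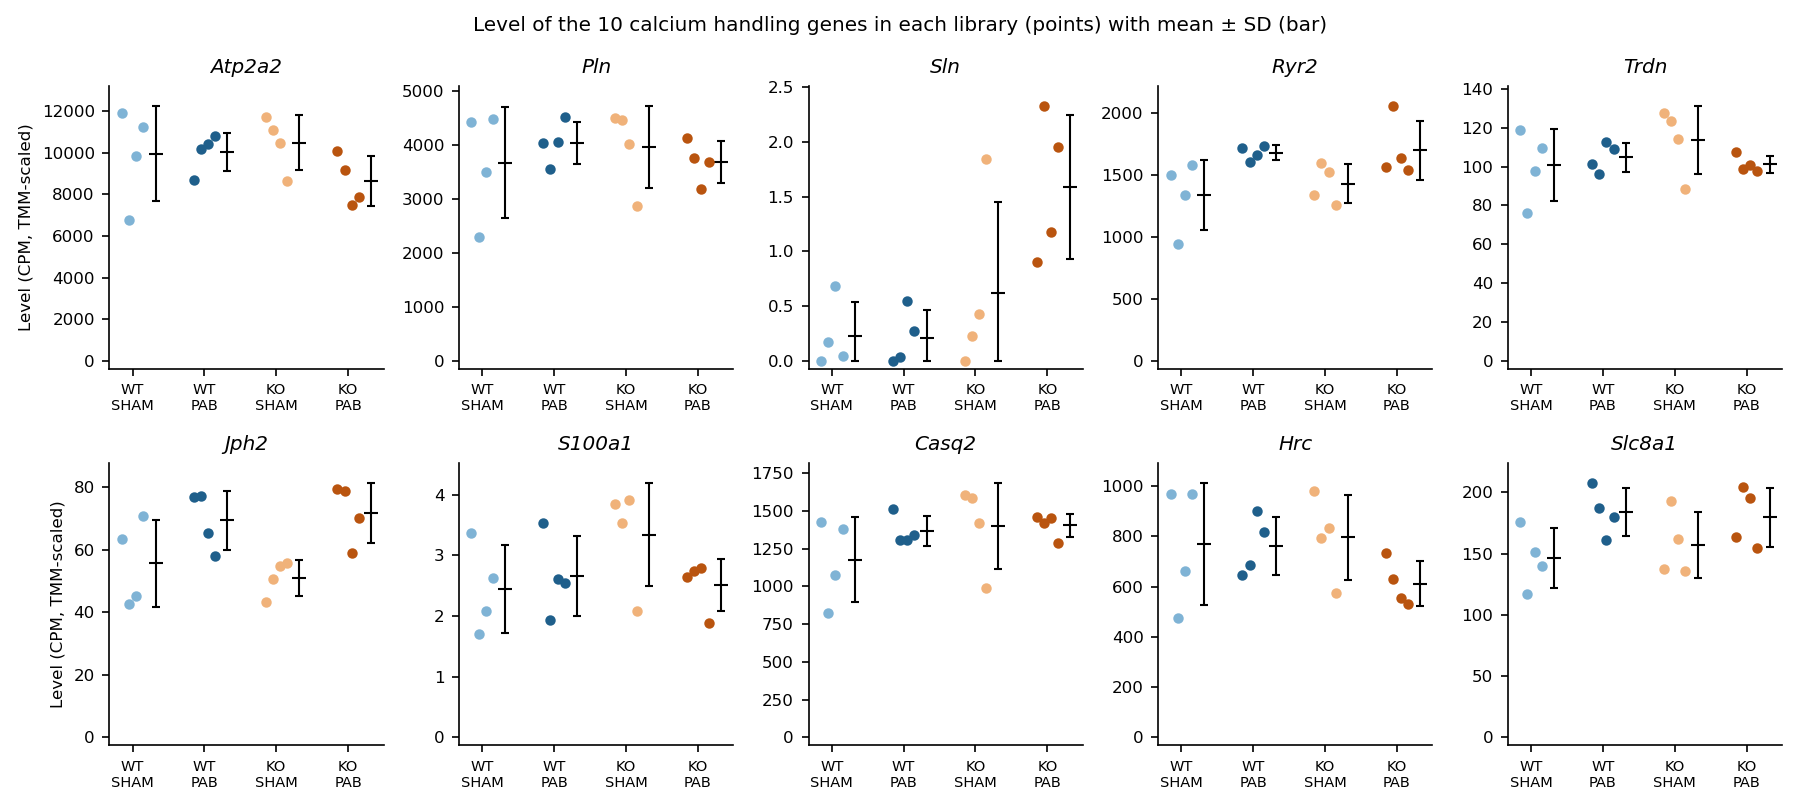
Level in CPM (TMM-scaled) of each gene in every library (points, ordered by library number) with the group mean ± SD at their right, n = 4 per group, the lower arm drawn no further than 0. WT SHAM has the widest spread for 6 of the 10 genes, with WT SHAM 2 at the bottom for 9 of 10, and Sln is highest in KO PAB at 0.904 to 2.32 CPM.

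The pump gene Atp2a2 was at 11934, 6782, 9850 and 11234 CPM in libraries 1 to 4 of WT SHAM. In WT PAB it was at 8707, 10182, 10408 and 10797 CPM. The groups overlap, and the WT SHAM values span more than those of WT PAB. In KO SHAM it was at 11719, 11096, 10488 and 8645 CPM, and in KO PAB at 10091, 9156, 7491 and 7881 CPM. KO PAB 3 and KO PAB 4 lie below every KO SHAM library, while KO PAB 1 and 2 lie within their range. With banding the log2 fold change was 0.01 (95% interval -0.35 to 0.37) in WT and -0.28 (-0.64 to 0.09) in KO, and -0.13 in the average (edgeR adjusted p = 0.543). Leaving out the 3 sham libraries gave -0.20 in WT, -0.36 in KO and -0.28 in the average, where the adjusted p was 0.0675. Group means ran KO SHAM, WT PAB, WT SHAM, KO PAB from high to low, and each neighbouring pair in that order differs by less than the larger of its SDs.

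Pln, which encodes phospholamban, had mean levels of 3667 ± 1019 CPM in WT SHAM and 4032 ± 391 CPM in WT PAB (SD, n = 4). The KO means were 3951 ± 756 CPM in SHAM and 3682 ± 389 CPM in PAB. The libraries of all 4 groups overlap, and the 2 lowest of the 16, at 2295 and 2866 CPM, are WT SHAM 2 and KO SHAM 4. The banding difference was a log2 fold change of 0.14 in WT and -0.10 in KO, and 0.02 (-0.27 to 0.31) in the average, with an edgeR adjusted p of 0.954. Without the 3 sham libraries the average was -0.18 (adjusted p = 0.176).

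Sln encodes sarcolipin, a pump inhibitor best known from the atria and skeletal muscle, and it was close to the detection limit. Its counts in libraries 1 to 4 were 0, 6, 19 and 1 in WT SHAM and 0, 1, 17 and 7 in WT PAB. They were 0, 6, 10 and 67 in KO SHAM and 24, 61, 32 and 55 in KO PAB. The 3 libraries at 0 allow up to 3 counts, or 0.0930 to 0.138 CPM, by counting error alone. Within a genotype the sham and banded libraries overlap, and the log2 fold change for banding had an interval of -2.75 to 2.53 in WT and -0.89 to 3.51 in KO. Neither is past the test, and the data are compatible with any effect within these intervals. Libraries of 1 group differ widely: KO SHAM 1, with the largest total count of all, had 0. The average was 0.60 (edgeR adjusted p = 0.703), and 2.99 (adjusted p = 0.0925) without the 3 sham libraries. That leaves WT SHAM with 0 and 1 counts, so the fitted value rests on the prior count added by the fit.

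Ryr2, the release channel, was at 1504, 946, 1339 and 1584 CPM in WT SHAM and at 1724, 1605, 1667 and 1733 CPM in WT PAB. Every WT PAB library lies above every WT SHAM library, the only one of the 10 genes for which the WT groups do not overlap; 2.6% of all tested genes were higher without overlap there. In KO SHAM it was at 1339, 1597, 1526 and 1259 CPM and in KO PAB at 1567, 2057, 1639 and 1541 CPM, where KO PAB 1 and 4 fall below KO SHAM 2. The log2 fold change was 0.32 (0.01 to 0.64) in WT, 0.25 (-0.07 to 0.57) in KO and 0.29 (0.06 to 0.51) in the average. The average is a 1.22-fold difference with an unadjusted p of 0.0159 and an edgeR adjusted p of 0.123. It was 0.16 without the 3 sham libraries (adjusted p = 0.227), and WT alone was then 0.13.

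Jph2 encodes junctophilin, which ties the reticulum to the tubule membrane where release takes place. Its levels were 63.5, 42.7, 45.1 and 70.9 CPM in WT SHAM and 76.7, 77.2, 65.2 and 58.1 CPM in WT PAB. These overlap, since WT SHAM 4 and WT SHAM 1 lie among the banded libraries. In KO SHAM the levels were 43.1, 50.6, 54.7 and 55.7 CPM and in KO PAB 79.4, 78.7, 58.9 and 70.1 CPM. The KO groups do not overlap, and 5.86% of all tested genes were higher with banding in this way. The log2 fold change was 0.32 (-0.02 to 0.66) in WT, 0.49 (0.15 to 0.83) in KO and 0.41 (0.16 to 0.65) in the average. The average, a 1.33-fold difference, had an unadjusted p of 0.00271 and just missed the threshold at an edgeR adjusted p of 0.0511; 9 of 25 alternative fits called it, with adjusted p from 0.0120 to 0.212. Without the 3 sham libraries the average was 0.30, with an edgeR adjusted p of 0.0832. Jph2 was then at 0.05 in WT and 0.54 in KO, where the adjusted p became 0.0467.

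Trdn encodes triadin, which anchors calsequestrin to the release channel. Its 16 libraries ran from 76.0 to 128 CPM, with means of 101 ± 18.5 CPM in WT SHAM, 105 ± 7.39 CPM in WT PAB, 113 ± 17.5 CPM in KO SHAM and 101 ± 4.30 CPM in KO PAB (SD, n = 4). The groups overlap in both genotypes. For banding the log2 fold change was 0.06 in WT and -0.17 in KO, and -0.05 (-0.25 to 0.14) in the average (edgeR adjusted p = 0.776). With the 3 sham libraries left out these were -0.12, -0.26 (adjusted p = 0.0696) and -0.19 (adjusted p = 0.0607).

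S100a1, a calcium sensor that binds both the pump and the channel, had 53 to 124 counts per library. How completely the deposited values count this gene was not tested. Mean levels were 2.44 ± 0.724 CPM in WT SHAM and 2.66 ± 0.659 CPM in WT PAB, then 3.34 ± 0.854 CPM in KO SHAM and 2.51 ± 0.426 CPM in KO PAB (SD, n = 4). The log2 fold change was 0.13 in WT and -0.41 (-0.95 to 0.13) in KO, with overlap in both genotypes. The edgeR adjusted p of the average, -0.14, was 0.681. Omitting the 3 sham libraries moved WT to -0.17, KO to -0.58 and the average to -0.37, with an adjusted p of 0.158.

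Of the luminal calcium binders, Casq2 encodes cardiac calsequestrin, the main calcium store. It had means of 1177 ± 281 CPM in WT SHAM, 1366 ± 97.3 CPM in WT PAB, 1399 ± 287 CPM in KO SHAM and 1403 ± 78.5 CPM in KO PAB (SD, n = 4). Both sham groups spread more widely than the banded ones, and the average log2 fold change was 0.11 (-0.15 to 0.37), with an edgeR adjusted p of 0.630. It changed sign, to -0.08, without the 3 sham libraries.

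Hrc encodes the histidine-rich calcium binding protein, which contacts both triadin and the pump. It was at 970, 475, 662 and 969 CPM in WT SHAM and at 646, 687, 899 and 816 CPM in WT PAB. In KO SHAM it was at 982, 793, 835 and 573 CPM and in KO PAB at 733, 628, 557 and 530 CPM. KO SHAM 4 is the 1 KO SHAM library that lies among the banded ones, the other 3 being above all of them. The log2 fold change was -0.01 (-0.48 to 0.45) in WT, -0.38 (-0.84 to 0.08) in KO and -0.20 (-0.52 to 0.13) in the average, with an edgeR adjusted p of 0.472. With the 3 sham libraries left out the average was -0.42 and passed, at an adjusted p of 0.0342. That omission, chosen after seeing the data, takes away the lowest Hrc levels of both sham groups and so makes the difference more negative.

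Slc8a1, the sodium-calcium exchanger, was at 176, 117, 152 and 140 CPM in WT SHAM and at 208, 187, 161 and 180 CPM in WT PAB. In KO SHAM it was at 137, 193, 162 and 136 CPM and in KO PAB at 163, 205, 195 and 154 CPM. The banded libraries are higher on average, with overlap in both genotypes. Banded over sham, the log2 fold change was 0.33 (0.02 to 0.64) in WT, 0.19 (-0.12 to 0.50) in KO and 0.26 (0.04 to 0.48) in the average, a 1.20-fold difference with an edgeR adjusted p of 0.143. The average became 0.18 (adjusted p = 0.321) once the 3 sham libraries were omitted.

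**Figure D2:**
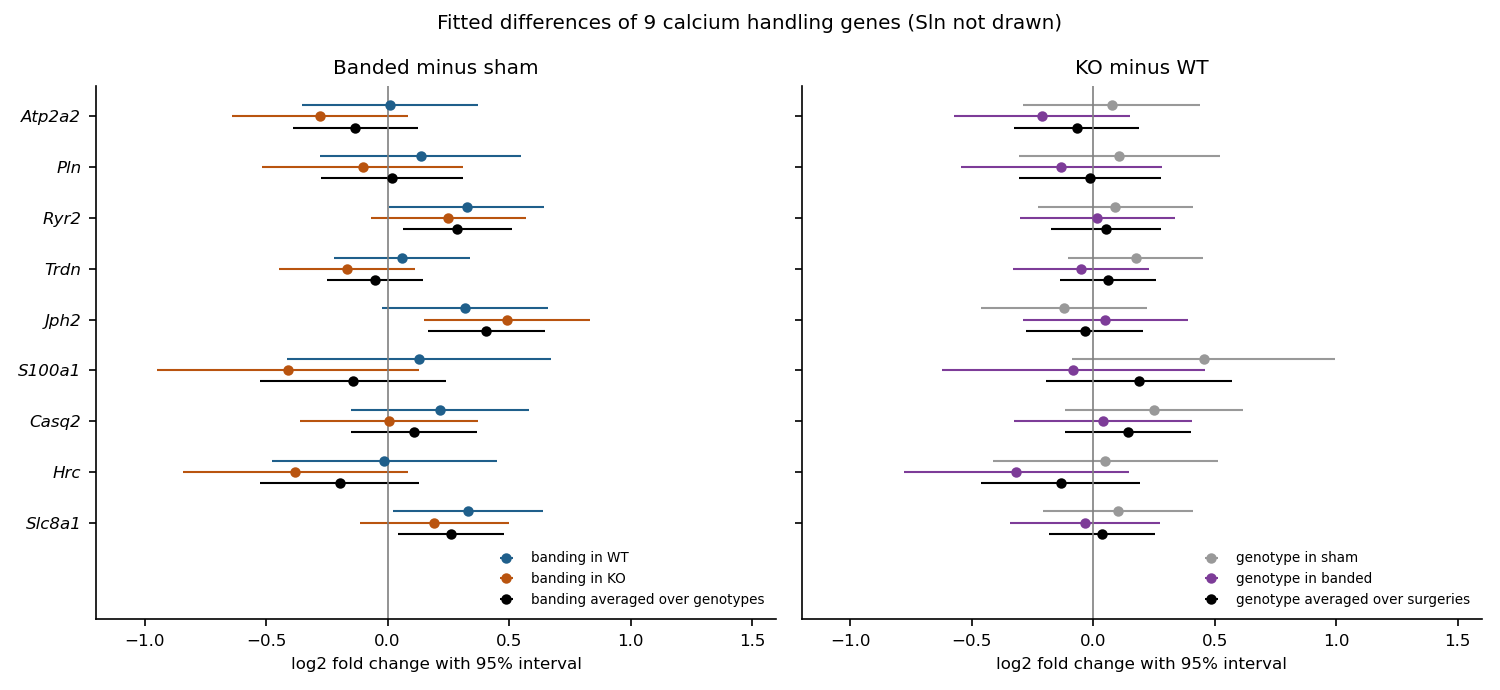
Fitted log2 fold changes (points) with 95% intervals (bars) for banded minus sham at the left and KO minus WT at the right, 9 genes in rows; Sln is left out for its wide intervals. The averaged banding intervals of Ryr2, Jph2 and Slc8a1 lie above 0 before adjustment, and every genotype interval drawn spans 0.

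The scale matters for the size of these differences. When libraries were scaled to the summed cardiomyocyte markers in place of TMM, the median log2 fold change of all genes for averaged banding went from -0.02 to -0.16, and in WT to -0.29. On that scale Jph2 was at 0.28, Ryr2 at 0.19 and Slc8a1 at 0.15. Against the median of all genes they were 0.45, 0.35 and 0.31, where TMM gives 0.43, 0.31 and 0.29. Pln changed sign between the scales, from 0.02 to -0.07, while Atp2a2 went from -0.13 to -0.24 and Hrc from -0.20 to -0.28. Of all tested genes 436 rose and 249 fell with TMM in the average, against 70 and 65 on the cardiomyocyte scale.

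**Figure D3:**
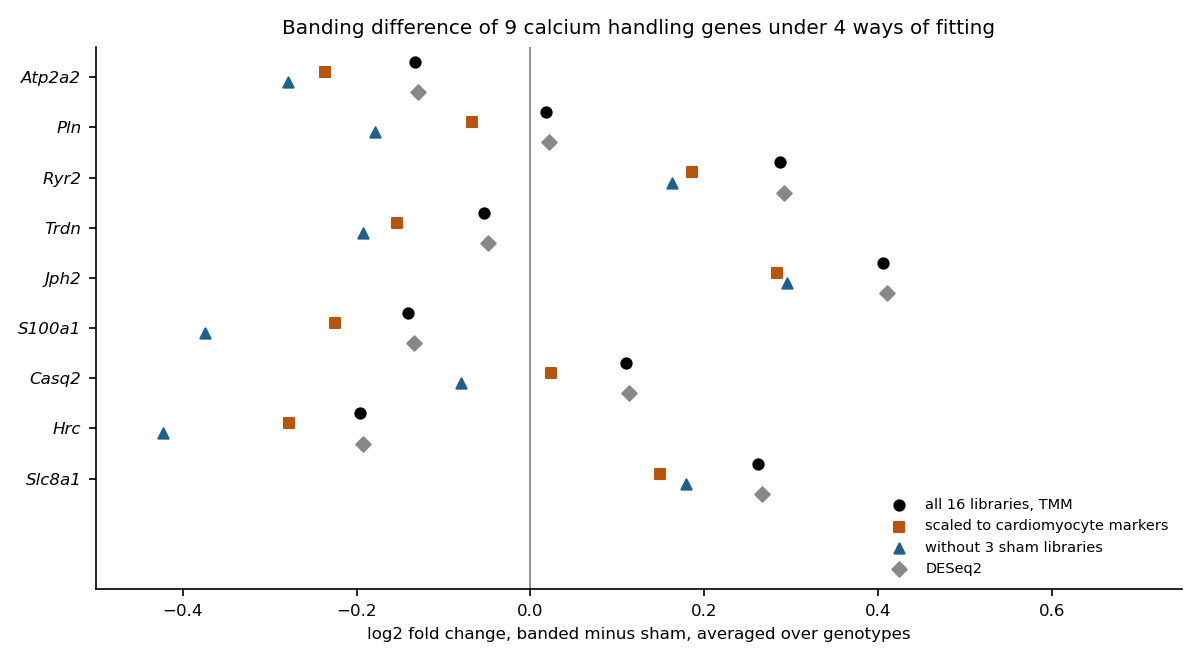
Log2 fold change of banded minus sham, averaged over genotypes, for 9 genes (rows) under 4 ways of fitting (marker shapes). Ryr2, Jph2 and Slc8a1 stay above 0 and Atp2a2, Trdn, S100a1 and Hrc below 0 in all 4, while Pln and Casq2 lie on both sides.

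Ratios between the genes were then compared, since a ratio of counts within a library does not depend on its scaling. A ratio is not a molar ratio, because gene length enters it, and only its change between groups was read. Over 12 ratios and 7 comparisons, 84 exact permutation tests were run and adjusted together. Of these, 2 passed, both for banding averaged over genotypes, and 18 had an unadjusted p below 0.05. An exact permutation test of 4 libraries against 4 cannot go below p = 0.0286, and one of the average over genotypes not below 0.000408.

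Ryr2 rose relative to Atp2a2 with banding. In libraries 1 to 4 there were 12.6, 13.9, 13.6 and 14.1 Ryr2 counts per 100 Atp2a2 counts in WT SHAM and 19.8, 15.8, 16.0 and 16.1 in WT PAB. In KO SHAM there were 11.4, 14.4, 14.6 and 14.6, and in KO PAB 15.5, 22.5, 21.9 and 19.6. Every banded library lies above every sham library of its genotype. The mean ratio was 1.34-fold higher, a log2 difference of 0.42, with a two-sided exact permutation p of 0.000408, the smallest these permutations can give, and an adjusted p of 0.0171. Taken alone, the ratio was 1.24-fold higher in WT and 1.44-fold in KO, each with an exact p of 0.0286 and an adjusted p of 0.133. Among 13193 genes with a count in every library, 0.826% had a ratio to Atp2a2 that was higher without overlap in both genotypes. The log2 difference was 0.38 without KO SHAM 1, where the adjusted p was 0.0686. With the 3 sham libraries left out it was 0.45, and the adjusted p 0.120.

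Trdn fell relative to Ryr2. There were 7.91, 8.04, 7.28 and 6.92 Trdn counts per 100 Ryr2 counts in WT SHAM and 5.87, 6.00, 6.76 and 6.28 in WT PAB. The KO SHAM values were 9.52, 7.74, 7.48 and 7.04, and those of KO PAB 6.84, 4.80, 6.16 and 6.33. Again the sham and banded libraries do not overlap in either genotype. The mean ratio was 0.791-fold, a log2 difference of -0.34, with an exact permutation p of 0.000408 and an adjusted p of 0.0171. Such a fall against Ryr2 in both genotypes was seen for 6.5% of the 13193 genes. Both passing ratios use the Ryr2 counts and are not independent of each other. The adjusted p was 0.0686 without KO SHAM 1 and 0.0514 without KO PAB 2.

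The ratio of phospholamban to pump, Pln to Atp2a2, was 36.9, 33.8, 35.5 and 39.8 Pln counts per 100 Atp2a2 counts in WT SHAM and 46.2, 34.8, 38.9 and 41.7 in WT PAB. In KO SHAM it was 38.3, 40.1, 38.2 and 33.2, and in KO PAB 40.9, 40.9, 42.5 and 46.6. In KO each banded library lies above each sham library, as do 15.1% of all genes against Atp2a2, and in WT the groups overlap. The average was a 1.12-fold higher ratio with an exact permutation p of 0.0151 and an adjusted p of 0.133, which does not pass. Left without the 3 sham libraries, it was 1.07-fold with an exact p of 0.162.

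The other ratios that stood out before adjustment all had adjusted p-values of 0.133. Slc8a1 to Atp2a2 was 1.31-fold higher with banding in the average (exact p = 0.00694), with means of 1.496 and 1.86 Slc8a1 counts per 100 Atp2a2 counts in WT SHAM and WT PAB and 1.51 and 2.11 in KO SHAM and KO PAB. Between the luminal binders, Hrc to Casq2 was 0.811-fold (exact p = 0.0106), with a KO PAB mean of 43.5 ± 5.15 Hrc counts per 100 Casq2 counts against 57.1 ± 4.84 in KO SHAM (SD, n = 4). Trdn to Casq2 was 0.885-fold (exact p = 0.00531) and S100a1 to Ryr2 0.745-fold (exact p = 0.0167). Without the 3 sham libraries Trdn to Casq2 was 0.925-fold, with an exact p of 0.0800. The other 3 were then 1.38-fold for Slc8a1 to Atp2a2 (exact p = 0.0114), 0.784-fold for Hrc to Casq2 (exact p = 0.0190) and 0.682-fold for S100a1 to Ryr2 (exact p = 0.0133). By genotype, Hrc to Casq2 was 0.833-fold in KO relative to WT over both surgeries (exact p = 0.0180). The ratio Hrc to Atp2a2 had group means between 7.07 and 7.62 Hrc counts per 100 Atp2a2 counts.

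**Figure D4:**
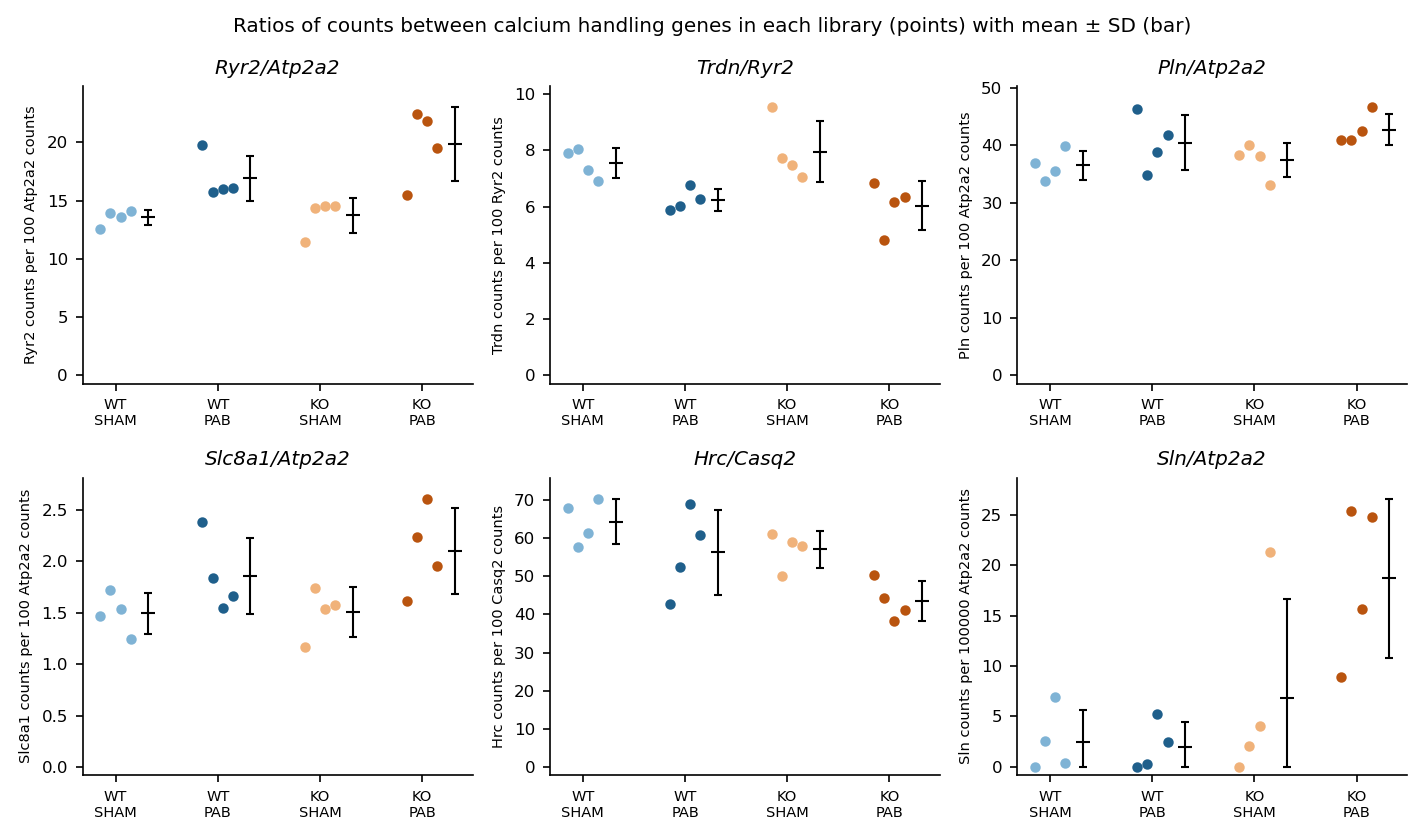
Ratios of counts in every library (points) with the group mean ± SD at their right, n = 4; each vertical axis gives counts of the first gene per 100 counts of the second, or per 100000 for Sln. For Ryr2 to Atp2a2 and Trdn to Ryr2 the sham and banded points do not overlap in either genotype, and for Sln to Atp2a2 the KO PAB points, from 8.96, lie above those of WT PAB, which reach 5.22.

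Genotype was compared within each surgery and averaged. None of the 10 genes passed the edgeR test in sham, banded or averaged libraries, where 0.00743% of tested genes passed each time, and DESeq2 and limma-voom called none of the 10 either. Of all genes DESeq2 passed 1 in sham, 5 in banded and 12 in the average, and limma-voom 1, 1 and 2. At an unadjusted p below 0.05 there were 0 of 10 in sham, 1 in banded and 1 in the average, Sln in both cases, against 2.03%, 4.52% and 4.93% of all genes. For the 9 genes other than Sln, log2 fold changes of KO over WT ran from -0.32 for Hrc in banded libraries to 0.46 for S100a1 in sham libraries. Averaged over surgeries, their 95% intervals lay within -0.46 to 0.57.

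Of the 10 genes Sln had the largest fitted difference between genotypes, which did not pass the test. All 4 KO PAB libraries, with 24 to 61 counts, lie above all 4 WT PAB libraries, with 0 to 17, as 1.69% of tested genes do. Mean levels were 1.59 ± 0.661 CPM in KO PAB and 0.211 ± 0.252 CPM in WT PAB, and 0.624 ± 0.8287 CPM in KO SHAM and 0.224 ± 0.313 CPM in WT SHAM (SD, n = 4). The log2 fold change was 2.86 (0.42 to 5.30) in banded libraries, with an unadjusted p of 0.0246 and an edgeR adjusted p of 0.999, and 2.15 (0.43 to 3.87) in the average. In sham libraries the groups overlap, and KO SHAM 4 holds 67 of the 83 counts of its group. Per 100000 Atp2a2 counts there were 8.96, 25.4, 15.7 and 24.7 Sln counts in KO PAB against 0, 0.317, 5.22 and 2.5 in WT PAB, with an exact permutation p of 0.0286 and an adjusted p of 0.133.

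Markers of other cells that express Sln were set beside it. Myl7, an atrial light chain gene, was at 0.753 to 9.96 CPM in KO PAB and at 0.922 to 14.1 CPM in WT PAB, so it does not separate these groups, and Bmp10 was at 0 or 1 count. In KO SHAM Myl7 had 22, 0, 12 and 279 counts, the most in KO SHAM 4, which also holds most Sln counts of that group. WT SHAM 2, with 326 Myl7 counts, had 6 Sln counts, and WT SHAM 3, with 174, had 19, the most of any WT library. In libraries 1 to 4 of KO PAB Myl7 had 20, 93, 26 and 281 counts, beside 24, 61, 32 and 55 Sln counts. In WT PAB it had 24, 437, 161 and 163, beside 0, 1, 17 and 7 Sln counts. Myl4, another atrial marker, was at 2.64 to 17.4 CPM in KO PAB and at 1.95 to 3.62 CPM in WT PAB. Whether atrial cells contribute to the Sln counts was not tested. Nppa did separate sham from banded libraries and was higher on average in KO PAB, at 718 ± 350 CPM, than in WT PAB, at 157 ± 204 CPM (SD, n = 4). Summed skeletal muscle markers were 68.3 to 108 CPM in KO PAB and 37.5 to 161 CPM in WT PAB, nearly all of it Casq1, and Atp2a1, the pump gene of fast skeletal muscle, had at most 4 counts in any library. The part of Nppa-expressing cells in the Sln difference was not tested.

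The interaction, the banding difference in KO minus that in WT, passed for none of the 10 genes, and for 0.0% of all genes, in edgeR. DESeq2 and limma-voom called none of the 10 and 0 of all genes. In edgeR 0 of 10 had an unadjusted p below 0.05, against 1.76% of all genes. Point estimates were below 0 for 8 of the 9 genes other than Sln, from -0.54 (-1.30 to 0.23) for S100a1 to -0.07 (-0.53 to 0.38) for Ryr2, and 0.17 (-0.31 to 0.65) for Jph2. On the cardiomyocyte scale, where the median of all genes went from 0.01 to 0.28, the estimates for Ryr2, Trdn, Casq2 and Slc8a1 changed sign. No ratio passed either, the smallest exact permutation p being 0.160. With this number of libraries, the data are compatible with differences anywhere within these intervals.

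A wider list of 75 calcium genes in 6 roles put the 10 in context; 69 are listed in the tables and 64 were tested. None of the 54 tested genes beyond the 10 passed edgeR's test in any of the 7 comparisons, and 12 of the 54 had an unadjusted p below 0.05 for averaged banding, against 22.7% of all tested genes. DESeq2 called 4 of the 54 there, where it passed 9.94% of all genes. Medians by role were taken over the 64 tested genes, so they include the 10. By role, the median log2 fold change for averaged banding was -0.07 for 5 genes of the pump and its regulators, 0.07 for 17 of the release channel, -0.10 for 8 of luminal storage, 0.16 for 6 of removal across the plasma membrane, 0.01 for 8 of the trigger channel and tubule, and -0.04 for 20 kinases and phosphatases, against -0.02 for all genes. Without the 3 sham libraries these medians were, in the same order, -0.14, 0.02, -0.03, 0.19, -0.03 and -0.08, against 0.01 for all genes. Beside Jph2, its relative Jph1 had a log2 fold change of 0.32 (0.11 to 0.53) with an edgeR adjusted p of 0.0730. Ppp2ca, the catalytic subunit of phosphatase 2A, was at 0.38 (0.15 to 0.61) with an adjusted p of 0.0511, and Ppp1r1a, an inhibitor of phosphatase 1, at -0.41 (-0.68 to -0.13) with an adjusted p of 0.0759. The anchoring proteins Akap6 and Akap7, which hold kinase A near the channel and pump, were at 0.25 and -0.20.

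**Figure D5:**
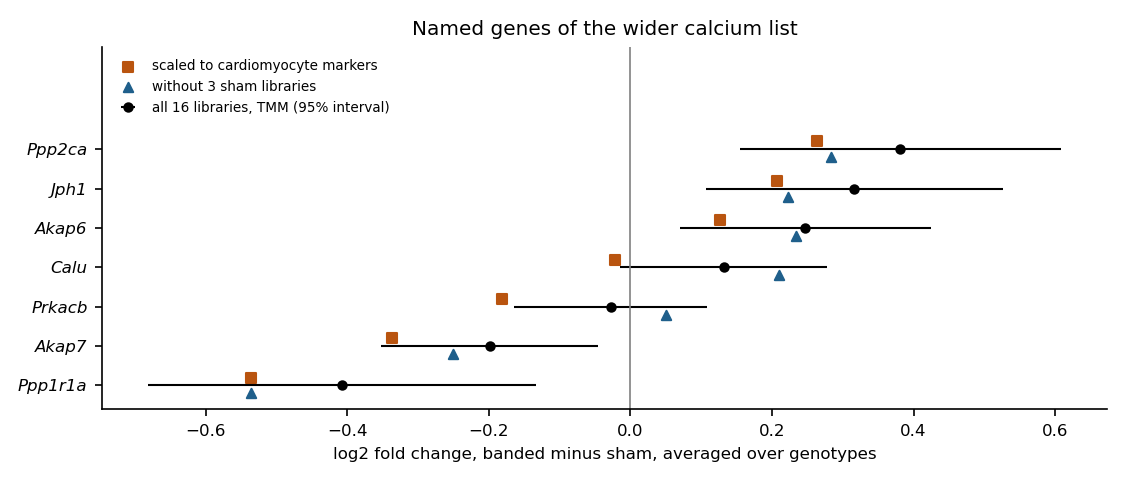
Log2 fold change of banded minus sham, averaged over genotypes, for the 7 named genes of the wider list (rows), with the 95% interval of the fit to all libraries and the values under another scaling and without 3 sham libraries. Ppp2ca, Jph1 and Akap6 are above 0 and Akap7 and Ppp1r1a below 0 in all 3; Calu and Prkacb lie on both sides.

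By genotype, averaged over surgeries, the smallest p-values of the wider list beyond the 10 genes belonged to Akap7 at a log2 fold change of -0.20 (-0.35 to -0.04), Jph1 at 0.20, Prkacb, a catalytic subunit of kinase A, at 0.13, and Calu, which encodes calumenin of the lumen, at 0.14. Each had an edgeR adjusted p of 0.989. Akap7 was at 7.47 ± 0.671 CPM in WT SHAM, 6.63 ± 0.449 CPM in WT PAB, 6.64 ± 0.493 CPM in KO SHAM and 5.68 ± 0.507 CPM in KO PAB (SD, n = 4).

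For the 3 genes whose level varied most over the 16 libraries, the genes with the most similar profile were found by the mean absolute difference of centred log2(CPM + 1) values, over 6870 genes of at least 10 CPM. Hrc varied by a mean absolute deviation of 0.28 and was closest to Acadvl (0.07), Acy1 (0.08) and Acsf2 (0.08). Jph2, with a deviation of 0.25, was closest to Dyrk1b (0.09), Bcl7b (0.09) and RGD1311739 (0.10). Sln, with a deviation of 0.50, had no near match: the closest, Raph1, differed by 0.30, and LOC103689963 and Ccser2 by 0.33 each. These are descriptions over 16 libraries that share the spread of the sham groups.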

How the data were processed

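The 10 genes, the wider list and the ratios were chosen with earlier results of these data known. The deposited values are expected counts (estimated counts) per gene, made by the authors with STAR 2.5.3a and RSEM 1.3.0 on Rnor_6.0, per the submitters' processing notes, and they are whole numbers as deposited. RNA came from 10 mg of tissue, and libraries were made with a stranded mRNA kit, per the labels' protocols. The annotation, the strand setting and the rounding are not given in the sources used here.

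All 16 libraries were fitted together in edgeR 4.0.16 (R 4.3.3): TMM scaling, filterByExpr defaults (minimum count 10), a robust quasi-likelihood fit of 4 group means, and Benjamini-Hochberg adjustment over 13458 genes within a comparison, with a threshold of 0.05. The main test was tested on simulated data. Ratios of counts were compared as log2 values by two-sided exact permutation tests over libraries, within genotype or surgery for averages, adjusted over 84 tests. Ratios with Sln were compared on the linear scale, a departure from the plan, because 3 libraries have 0 Sln counts. Alternatives were DESeq2 1.42.0, limma-voom (limma 3.58.1), RLE size factors, other filters and scalings, a replicate block, fits of single pairs of groups, a pseudocount of 1 CPM and medians for ratios, and leaving out each library; leaving out 3 sham libraries was added after seeing the data. Named genes were the 10, any gene of the wider list past a test, and where fewer than 4 passed, the 4 with the smallest p for averaged banding and for averaged genotype. Strit1, Mrln, Arln, Erln, Calm3 and Itpr2 were not analysed here. No pair of libraries agreed within sampling noise.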

Additional observations from a re-analysis of the deposited data

Results flagged for a closer look

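Among 88 sets of 4 libraries (a gene's level or a ratio in a group), 5 had 1 library whose gap to the nearest other took up most of the range, past Dixon's limit; chance flags about 1 in 20 groups, so this number is near what chance gives. Casq2 was at 1511 CPM in WT PAB 1, against 1306 to 1338 CPM in the other WT PAB libraries. The ratio of Ryr2 to Atp2a2 was 19.8 per 100 in WT PAB 1, against 15.8 to 16.1 in its group. In KO SHAM 1 the same ratio was 11.4 per 100, against 14.4 to 14.6. In both cases the library lies away from the opposite surgery group. KO SHAM 4 had 64.2 Sln counts per 100000 Pln counts, where the others had 0 to 10.6, and it is also among the 3 sham libraries with high smooth muscle and mesothelial sums. S100a1 was at 1.88 CPM in KO PAB 4, against 2.64 to 2.79 CPM in the others, from 53 counts.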

How the results depend on the processing

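For banding averaged over genotypes, no gene of the 10 passed with edgeR as planned. With RLE size factors 1 passed (692 of all 13458 genes), and 1 with DESeq2 (9.94%). The stricter filter gave 1 (685 of 12096 genes), as did leaving out mitochondrially encoded genes (704 of 13425) or the 3 sham libraries (7.0%). Leaving out 1 library gave 0 to 1, where 356 to 964 genes passed in all. Jph2 was the gene called, except without the 3 sham libraries, where it was Hrc. For banding in KO, 1 of the 10 (Jph2) and 1 of the 54 other genes of the wider list passed without the 3 sham libraries, as did 344 (2.53%) of 13583 genes in all. For the average, the other genes of the wider list numbered 4 with DESeq2 (9.94% of all genes), 3 without the 3 sham libraries (7.0% of all genes), and 1 each with the stricter filter, without mitochondrially encoded genes and with the replicate block, and 0 to 1 when 1 library was left out. The log2 difference of Ryr2 to Atp2a2 was 0.37 with medians and 0.45 without the 3 sham libraries, and 0.38 to 0.48 when 1 library was left out; that of Trdn to Ryr2 was -0.30, -0.35 and -0.37 to -0.28. With medians or without the 3 libraries neither passed; the latter leaves fewer arrangements, and for the medians the cause was not tested. Over all genes the averaged count, 685, was 135 on the cardiomyocyte scale and 1337 with DESeq2. Of 1788 alternative values of the 10 genes, 86 changed sign, none of them called. Whether the replicate numbers pair the samples is not settled: 3 of 16 libraries correlated best with their own number. Correlations of the 24 same-number pairs ran from -0.62 to 0.56. With the replicate block 496 genes passed for averaged banding in place of 685, and 0 in place of 85 for KO. The block also fits more terms to the same libraries, so this fall does not decide it. Sln, with 0 to 67 counts, is limited by its low counts and by the spread among libraries of a group.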
